A study of Mus musculus with 3 samples.

Results

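The replication-dependent histone genes of mouse stomach organoids are described here across 3 RNA sequencing libraries. Members were the lines of the deposited gene table whose symbol follows the clustered histone names (H1f1 to H1f5, H2ac, H2bc, H3c and H4c with a number, or the older Hist1h to Hist4h names), a rule that reads the symbol and no measured value. The symbols matched 65 lines, of which H2ac5-ps, a pseudogene by its symbol, was left out. This gave 64 genes of the 56691 in the table, namely 5 of type H1, 18 of H2A, 17 of H2B, 12 of H3 and 12 of H4. Among them H2ac14 was kept, since its symbol has no -ps ending, although GENCODE M21 calls it an unprocessed pseudogene. Per the labels, the libraries came from corpus organoids, which are gel-embedded epithelial cultures of the acid-secreting stomach, kept in proliferating medium. The first was labelled Gpx4 KO-Mist1+, genotype Gpx4 KO. The others were labelled Mist1+ and Mist1-, both with genotype WT, and all titles also carry P5. Mice of about 8 weeks gave the tissue, some of the strain Gpx4F/F;Mist1Cre/ERT2;RFPLSL and the others of Mist1Cre/ERT2;RFPLSL. An inducible Cre at the Mist1 locus and a Cre-dependent red reporter were thus part of both strains, and floxed Gpx4 of the first only. How many animals or cultures each library pools, and how cells were called Mist1+ or Mist1-, is not given in the sources used here.

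Each group was 1 library, so no difference below has a replicate check and none was tested. The intervals cover counting error only. Gpx4, the floxed gene, had 2569 counts and 90.9 FPKM in the library labelled Gpx4 KO-Mist1+, against 1998 counts and 71.6 FPKM in Mist1+ and 4399 counts and 171 FPKM in Mist1-. The knockout label was thus not borne out by a lower Gpx4 count than in Mist1+, and whole-gene counts cannot show the loss of single exons. Bhlha15, the gene that encodes Mist1, had 6.46 FPKM in the library labelled Gpx4 KO-Mist1+, 10.2 in Mist1+ and 5.40 in Mist1-. Of 15 gastric epithelial markers, 14 passed an FPKM of 1 in some library, as did 0 of 9 fibroblast and smooth muscle markers, 0 of 4 endothelial markers and 2 of 7 immune markers. The first was Cd68, a lysosomal protein of macrophages, with 503 counts in the library labelled Gpx4 KO-Mist1+, 103 in Mist1+ and 82 in Mist1-. The other was Cd14, a co-receptor for bacterial lipopolysaccharide, with 924, 893 and 1051 counts in the same order. Ptprc, which marks all leukocytes, had 0, 1 and 1, and Csf1r, a macrophage receptor, 1, 1 and 3. The part of such cells in the histone values was not tested.

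Histones are the proteins around which DNA is wound. H2A, H2B, H3 and H4 form the core of the nucleosome, and H1 binds the linker DNA where the strands leave it. Cells that copy their genome need a new set of histones within S phase, and the clustered genes supply it: NPAT, driven by cyclin E and Cdk2, switches on their transcription, and the stem-loop binding protein SLBP holds a hairpin at the 3′ end of their mRNA. That hairpin takes the place of a poly(A) tail, and the mRNAs are destroyed when DNA synthesis ends. Some of the genes, H1f2 among them, are known also to make polyadenylated mRNA from a site further downstream, a form seen in cells that have left the cycle. In GENCODE M21 on GRCm38 the members lay in a large cluster of 54 genes on chromosome 13, between 21715763 and 23934851, and a small cluster of 10 genes on chromosome 3, between 96219865 and 96270132. Of the 64 gene models, 60 had a single exon.

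The stem-loop was searched on the sense strand of the members' M21 transcripts as the 16 bases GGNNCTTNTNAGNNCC, where N is any base. It was found in 42 of the 64 members, against 201 of all 55450 genes in M21, or 0.362%. The form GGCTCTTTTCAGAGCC stood in 24 members of the types H1, H2A, H2B and H3, on both chromosomes. The form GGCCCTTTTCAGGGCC stood in 6 genes, all of type H4, and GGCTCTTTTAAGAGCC in 5 of types H2B and H3. The sites of 6 genes that recur below are shown 5′ to 3′ as DNA, since they carry the arms that differ between the types; capitals mark the stem-loop.
H1f2, chr13:23739507-23739532, plus strand: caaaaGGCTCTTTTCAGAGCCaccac
H2bc11, chr13:22043633-22043658, plus strand: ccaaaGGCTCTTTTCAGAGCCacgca
H3c8, chr13:23535884-23535909, plus strand: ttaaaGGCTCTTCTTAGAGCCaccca
H3c4, chr13:23576239-23576264, plus strand: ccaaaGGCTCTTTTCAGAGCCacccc
H4c8, chr13:23531453-23531478, plus strand: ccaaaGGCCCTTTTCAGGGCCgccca
H4c9, chr13:22040961-22040986, minus strand: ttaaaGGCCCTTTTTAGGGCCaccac
In H1f2 the hairpin began 24 bases after the stop codon and the gene model ran on for 840 bases past it, with 1 AATAAA, the usual poly(A) signal, in that stretch. In H4c9 the model ran 330 bases past it with no AATAAA. The models of H4c8, H3c8 and H2bc11 ended 46, 47 and 23 bases past it.

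The counts of all libraries lay mostly in genes whose model reaches beyond the hairpin or shows none. Most of these counts were those of single genes: H1f2 and H4c9, which reach beyond it, and H2bc4 and H2bc21, which show none. The 19 members whose model runs more than 100 bases past the stem-loop held 62.2% of the members' counts in the library labelled Gpx4 KO-Mist1+, 72.0% in Mist1+ and 66.0% in Mist1-. The 23 members whose model ends within 100 bases of it held 2.40%, 3.69% and 4.08% in the same order of libraries. A further 9 members had untranslated bases but no match, H2bc4 and H2bc21 among them, and held 34.2%, 22.4% and 28.3%. The models of the remaining 13 had no annotated bases after a coding region, H2ac14 among them with no coding region in M21 at all, and they held 1.2%, 1.96% and 1.65%. The number of bases a model adds also enlarges the target for reads, and whether reads fell before or after the hairpin cannot be read from counts per gene. Whether the libraries were selected for poly(A) RNA is not given in the sources used here.

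**Figure D1:**
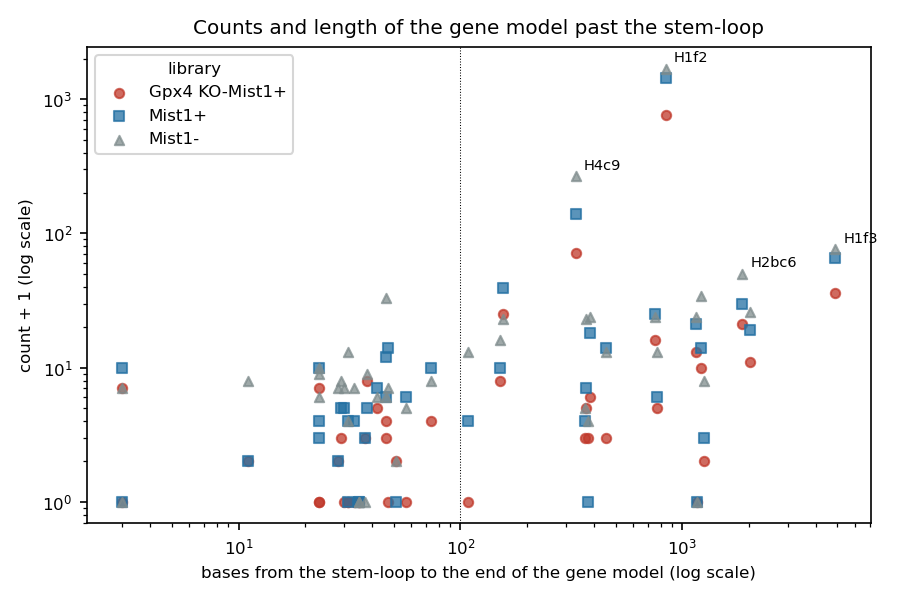
Count plus 1 (vertical, log scale) of the 42 members with a stem-loop, against the bases between the stem-loop and the end of the gene model (horizontal, log scale), 1 point per gene and library. The dotted line marks 100 bases; H1f2, H4c9, H1f3 and H2bc6, the genes with the most counts in the plot, all lie to its right.

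The 250 bases before the start of RefSeq genes on GRCm38.p6 were found for 57 of the members; H2ac14, H2bc4, H2bc21, H2bc24, H3c1, H3c7 and H4c14 had no entry. On either strand CCAAT, the binding sequence of the factor NF-Y, stood in 82.5% of them, against 33.8% of all 32851 promoters in the table. By type it stood in 100% of the H1, H2A and H2B genes and 80% of the H3 genes. Of the H4 genes 3 of 11 had it, or 27.3%, which is below the share of all promoters. TATAAA, the TATA box, stood in 49.1%, against 12.4%. The octamer ATTTGCAT, bound by Oct1, stood in 12 members, or 21.1%, against 1.6%: these were 6 of 17 H2A genes, 6 of 14 H2B genes and no gene of type H1, H3 or H4. AAACACA, the H1 box, stood in 4 of 5 H1 genes, 2 of 17 H2A genes, 2 of 14 H2B genes and no H3 or H4 gene, against 6.25% of all promoters. Some H2A and H2B genes start close together on opposite strands, as do H2ac1 and H2bc1, H2ac8 and H2bc8, and H2ac12 and H2bc12. Their upstream stretches can overlap, so a single site can count for both genes, and members are not independent promoters. The H2bc8 stretch below runs into the H2ac8 gene, and the H2ac6 stretch into the first bases of H2bc4, which lies on the opposite strand. A match is a description, not a binding site. Shown 5′ to 3′, as the member with the most counts and the 2 octamer genes with the most counts, are these upstream stretches, with all 4 motifs in capitals.
H1f2, chr13:23738557-23738806, plus strand: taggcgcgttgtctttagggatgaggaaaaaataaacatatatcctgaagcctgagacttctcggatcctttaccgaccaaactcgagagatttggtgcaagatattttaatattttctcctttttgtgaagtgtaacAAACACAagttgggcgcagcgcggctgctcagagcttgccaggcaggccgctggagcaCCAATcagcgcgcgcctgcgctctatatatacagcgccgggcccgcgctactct
H2bc8, chr13:23571150-23571399, plus strand: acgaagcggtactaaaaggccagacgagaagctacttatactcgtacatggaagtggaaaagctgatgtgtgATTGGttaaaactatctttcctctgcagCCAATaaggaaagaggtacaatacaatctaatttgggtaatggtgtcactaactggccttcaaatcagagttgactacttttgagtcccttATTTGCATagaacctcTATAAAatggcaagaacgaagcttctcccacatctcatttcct
H2ac6, chr13:23683960-23684209, minus strand: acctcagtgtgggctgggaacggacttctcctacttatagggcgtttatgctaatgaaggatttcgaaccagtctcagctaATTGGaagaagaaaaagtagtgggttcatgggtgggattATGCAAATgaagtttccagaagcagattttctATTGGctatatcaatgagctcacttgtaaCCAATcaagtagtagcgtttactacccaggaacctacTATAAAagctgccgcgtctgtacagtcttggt
In H1f2 the H1 box began 112 bases and the CCAAT box 54 bases before the start, and no octamer was found. In H2bc8 the octamer began 59 and the TATA box 43 bases before the start. In H2ac6 the octamer lay on the other strand, which is that of H2bc4, 130 bases before the H2ac6 start, with the TATA box at 32.

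The histone genes were a small part of every library and were lowest in the one labelled Gpx4 KO-Mist1+. Their summed counts were 1584 there, 2547 in Mist1+ and 3507 in Mist1-, of 16396693, 16187378 and 14943918 counts in all. Scaled to the library totals, the library labelled Gpx4 KO-Mist1+ had 96.6 CPM (95% Poisson interval 91.9 to 101), Mist1+ had 157 (151 to 164) and Mist1- had 235 (227 to 243). The 3 intervals do not overlap. Most members were barely seen: the median member had 2 counts in the library labelled Gpx4 KO-Mist1+, 3 in Mist1+ and 6 in Mist1-. A count in some library was found for 56 of the 64 members, against 24991 of all 56691 genes. The 8 members with none were H2ac1, H2ac18, H2ac19, H2ac21, H2ac24, H2bc18, H3c13 and H3c14, and for each a count of 0 allows up to 3 counts per library.

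A handful of genes made up the sum. H1f2, H2bc4, H4c9 and H2bc21 held 85.9% of the members' counts in the library labelled Gpx4 KO-Mist1+, 83.3% in Mist1+ and 82.9% in Mist1-. H1f2 alone held 48.2%, 56.1% and 48.1% in that order. The other 60 members had 223 counts in the library labelled Gpx4 KO-Mist1+, 425 in Mist1+ and 599 in Mist1-, or 13.6, 26.3 and 40.1 CPM. The order of the libraries was therefore the same with and without the 4 abundant genes.

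The coding parts of these genes are near copies, which limits what can be said of single members. Of all 100-base windows of each member's M21 transcripts, at least 80% occurred in no other gene for 18 members, under 50% for 29, and none for H2ac18, H2ac19, H2bc18, H3c13 and H3c14. The share was 94.9% for H1f2, 74.6% for H2bc4, 84.9% for H4c9 and 100% for H2bc21. How reads with several alignments were counted, and whether strand was used, is not given in the sources used here. Values of members with a low share are uncertain, and H1f4 and H2bc6 also share 496 bases on the same strand.

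The linker histones were led by H1f2, which encodes H1.2, a linker histone found in most cell types. H1f2 had 764 counts and 29.9 FPKM in the library labelled Gpx4 KO-Mist1+, 1429 counts and 56.6 FPKM in Mist1+, and 1687 counts and 72.4 FPKM in Mist1-. FPKM is the count scaled to exonic length and to the library total, as the authors computed it. H1f3 had 35, 65 and 75 counts in the same order of libraries, H1f4 had 12, 20 and 23, and H1f5 had 3, 12 and 20. All 4 genes were lowest in the library labelled Gpx4 KO-Mist1+ and highest in Mist1-. H1f1 stood near the floor with 3, 2 and 7 counts. Per length H1f3 was far below H1f2, at 0.29 FPKM in the library labelled Gpx4 KO-Mist1+, 0.54 in Mist1+ and 0.68 in Mist1-, over an exonic length of 7425 bases.

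H2A genes were hardly detected. The 18 members summed to 31 counts in the library labelled Gpx4 KO-Mist1+, 50 in Mist1+ and 85 in Mist1-, and 5 of them had no count anywhere. H2ac6 had the most, with 10, 18 and 25 counts in that order of libraries. The highest FPKM of an H2A gene was that of H2ac8, with 0.61 in the library labelled Gpx4 KO-Mist1+, 0.79 in Mist1+ and 1.43 in Mist1-. H2ac15 and H2ac10 reached an FPKM of 1 only in Mist1-, from 6 counts each. H2ac7 and H2ac12 stayed at 6 counts or fewer in every library.

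H2B counts lay mostly in H2bc4 and H2bc21. The type summed to 604 counts in the library labelled Gpx4 KO-Mist1+, 665 in Mist1+ and 1117 in Mist1-. H2bc4 had 368 counts and 19.4 FPKM in the library labelled Gpx4 KO-Mist1+, 396 counts and 21.2 FPKM in Mist1+, and 826 counts and 47.8 FPKM in Mist1-. H2bc21 on chromosome 3, which encodes the H2BE variant known from olfactory neurons, had 159, 158 and 128 counts, or 3.70, 3.73 and 3.27 FPKM, in the same order. H2bc21 was thus close to level across the libraries, in contrast to H1f2 and H4c9. H2bc8 had 24 counts in the library labelled Gpx4 KO-Mist1+, 38 in Mist1+ and 22 in Mist1-. H2bc6 had 20, 29 and 49 counts, H2bc9 had 9, 13 and 33, and H2bc11 had 0, 9 and 8.

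H3 genes were as scarce as H2A genes. They summed to 36 counts in the library labelled Gpx4 KO-Mist1+, 66 in Mist1+ and 78 in Mist1-. H3c4 had 15, 24 and 23 counts, H3c6 had 4, 6 and 22, H3c8 had 0, 13 and 6, and H3c10 had 1, 4 and 9, in the same order of libraries. H3c11 had 6, 5 and 3 counts, or 0.89, 0.75 and 0.49 FPKM, and was thus highest in the library labelled Gpx4 KO-Mist1+. H3c3, with 3, 9 and 7 counts, also stayed below an FPKM of 1. No H3 gene exceeded 1.76 FPKM in any library.

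The H4 genes were led by H4c9, with 70 counts and 5.87 FPKM in the library labelled Gpx4 KO-Mist1+, 139 counts and 11.8 FPKM in Mist1+, and 267 counts and 24.6 FPKM in Mist1-. The type summed to 96 counts in the library labelled Gpx4 KO-Mist1+, 238 in Mist1+ and 415 in Mist1-. H4c12 had 4, 32 and 20 counts in that order of libraries, over a model of 312 bases of which only 35.7% of windows were its own. H4c8 had 3, 11 and 32 counts, H4c11 had 5, 17 and 23, and H4c17 had 6, 9 and 6. H4c1 and H4c18 each had 0, 3 and 12 counts. Of the 12 H4 genes, 11 had fewer counts in the library labelled Gpx4 KO-Mist1+ than in Mist1+, and H4c2 had 1 in each. Over all genes with a count in either library, 56.2% had a lower scaled count there. Some of the 11 differ by few counts, such as H4c4 with 4 and 5. The 95% interval of the fold lay below 1 for 4 of the 12, against 24.5% of all genes with a count.

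The small cluster on chromosome 3 contributed little besides H2bc21. H2ac20 had 0 counts in the library labelled Gpx4 KO-Mist1+, 5 in Mist1+ and 4 in Mist1-. H3c15 had 2, 0 and 3 counts and H4c14 had 1, 2 and 7, in the same order. H2ac18, H2ac19, H2ac21, H2bc18, H3c13 and H3c14 had none, and 5 of these 6 have no window of their own.

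**Figure D2:**
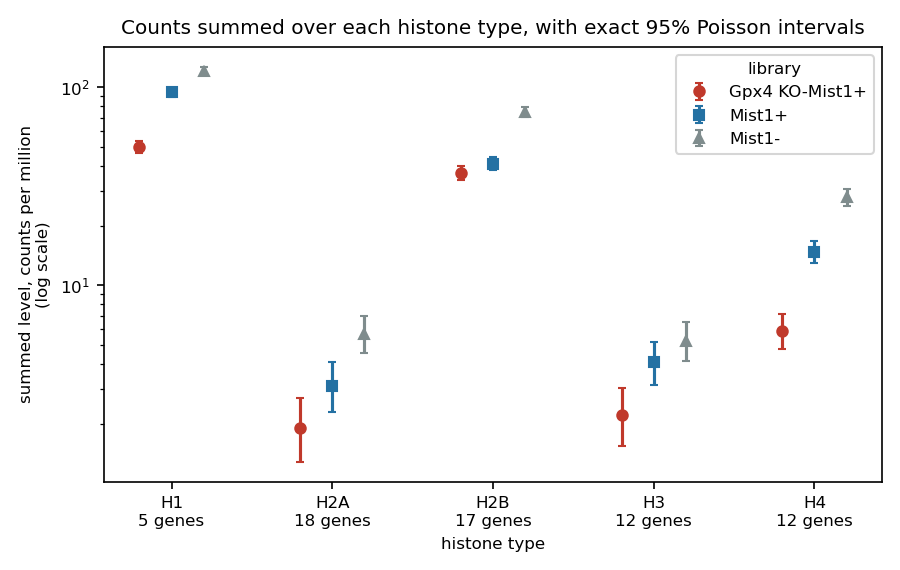
CPM (counts scaled to the library total) summed over the members of each histone type (log scale) in the 3 libraries, with exact 95% Poisson intervals. H1, H2A, H3 and H4 are lowest in the library labelled Gpx4 KO-Mist1+, as is H2B; the intervals of H2A and H2B there overlap those of Mist1+.

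**Figure D3:**
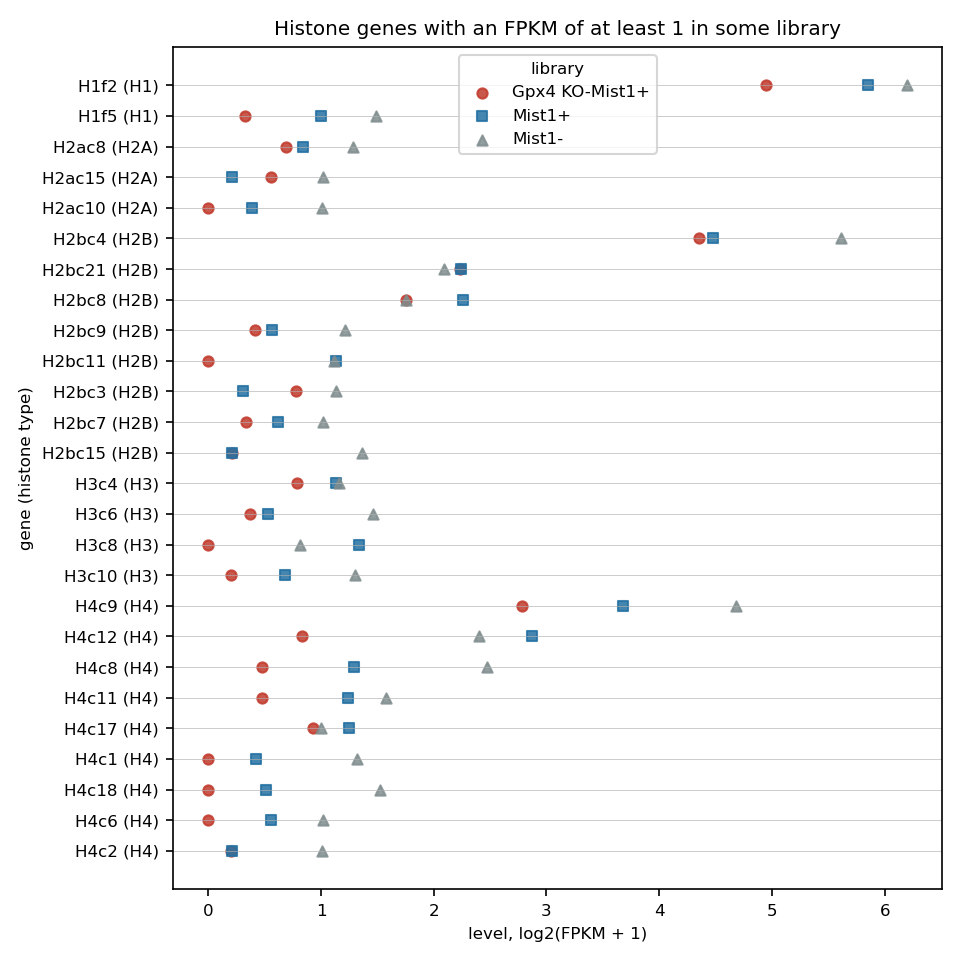
Level of the 26 members that reached 1 FPKM in some library, as log2(FPKM + 1), by library and histone type. H1f2, H2bc4 and H4c9 stand apart from the rest, and most genes lie below 2 FPKM in every library.

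As a group the histone genes were 1.63-fold lower in the library labelled Gpx4 KO-Mist1+ than in Mist1+ (95% interval 1.53 to 1.74), by counts summed over all 64. H4 was lower by the largest factor, 2.51-fold (1.97 to 3.22), followed by H1 at 1.89-fold (1.74 to 2.06), H3 at 1.86-fold (1.22 to 2.87) and H2A at 1.63-fold (1.02 to 2.65). Without H4c9 the other 11 H4 genes were 3.86-fold lower (2.48 to 6.19). H2B was 1.12-fold lower, and its interval, 0.997 to 1.25, includes no difference. Without H2bc4 and H2bc21 the other 15 H2B genes were 1.46-fold lower (1.08 to 1.98). Of the 54 members with a count in either library, 44 had a lower scaled count in the library labelled Gpx4 KO-Mist1+; over all genes with a count this share was 56.2%. Of the 44, 6 had equal counts in both and differ only by the library totals.

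By gene, H1f2 was 1.89-fold lower than in Mist1+ (1.73 to 2.07) and H4c9 2.01-fold lower (1.5 to 2.72). H4c12 was 8.10-fold lower (2.87 to 31.5), H4c11 3.44-fold (1.22 to 11.9) and H1f5 4.05-fold (1.09 to 22.4). H3c8 and H2bc11 had no count in the library labelled Gpx4 KO-Mist1+ and were at least 4.39-fold and 3.04-fold lower there, against a floor of 3 counts; with the counting error of Mist1+ included, the exact 95% interval begins at 3.09-fold and 2.0-fold lower. H2bc4 and H2bc21 were level within counting error, at folds of 0.917 (0.794 to 1.06) and 0.993 (0.792 to 1.25). The interval lay wholly below 1 for 9 members of 54 and above 1 for 0; over all genes with a count it lay below 1 for 24.5% and above 1 for 16.6%, a share that grows with a gene's depth.

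On the scale of log2(FPKM + 1) only genes that reached 1 FPKM in some library were counted, which holds for 26 of the 64 members and 13351 of all genes. Of the 26, 13 passed through Mist1- alone and 1 through Mist1+ alone, so a low level elsewhere was partly set by the filter, and the counts over them describe these libraries without being support. At least 2-fold lower in the library labelled Gpx4 KO-Mist1+ than in Mist1+ were 3 of the 26, and 0 were higher by that measure, against 2.74% lower and 4.81% higher of all genes, and 8.99% and 9.71% of the 1813 genes of at most 1000 exonic bases. The 3 were H4c12, H3c8 and H2bc11, with log2 ratios of -2.04, -1.33 and -1.14. Just outside, H1f2 and H4c9 both stood at -0.90. Below 0 were 23 of the 26, against 58.8% of all genes. The median ratio of the 26 was -0.41, against -0.09 for all genes and -0.01 for the short ones. Most members lie near or under 1 FPKM, where the added 1 shrinks a ratio. With 0.1 added in its place, 11 members were at least 2-fold lower and 2 higher, against 5.79% and 7.70% of all genes and 17.4% and 16.2% of short genes at that setting. The 2 were H2ac15 and H2bc3 at 3 and 6 counts in the library labelled Gpx4 KO-Mist1+, against 1 and 2 counts in Mist1+.

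In Mist1+ the histone genes were 1.49-fold lower than in Mist1- (1.42 to 1.57) by summed counts. H4 was 1.89-fold lower (1.61 to 2.22), H2A 1.84-fold (1.28 to 2.67), H2B 1.82-fold (1.65 to 2.01) and H1 1.28-fold (1.2 to 1.38). H3 was 1.28-fold lower, with an interval of 0.91 to 1.80 that includes no difference. H2bc4 was 2.26-fold lower (2.0 to 2.55), and without it the fold of the other H2B genes was 0.853 in place of 0.550. H2bc21 had a fold of 1.14 (0.897 to 1.45), and the 15 H2B genes besides both had 0.629 (0.489 to 0.805). H4c9 was 2.08-fold lower in Mist1+ (1.69 to 2.57) and H1f2 1.28-fold (1.19 to 1.37). Of 56 members with a count in either library, 42 had a lower scaled count in Mist1+, against 39.7% of all genes with a count.

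Among the 26 genes past the filter, a ratio to Mist1- of 0.5 or less was reached in Mist1+ by 4 and one of 2 or more by 0, against 5.73% and 7.88% of all genes and 22.0% and 18.4% of short genes. The 4 were H4c8, H2bc15, H2bc4 and H4c18, with log2 ratios of -1.18, -1.15, -1.14 and -1.01, and H4c9 fell just outside. The share of members lower in Mist1+ lay above that of all genes and below that of short genes. Since 13 of the 26 passed the filter through Mist1- alone, the values over the 26 are partly set by it and are no support. Of the 26, 20 had a ratio below 0, against 40.5% of all genes. The median ratio was -0.55, against 0.15 for all genes and -0.16 for short genes. This comparison moved with gene length over the whole table. With the trend on exonic length removed, the summed fold was 0.914 in place of 0.670, that of H1 was 1.03 in place of 0.778, that of H3 was 1.06 in place of 0.781, and 0 of the 26 members were at least 2-fold lower, against 3.86% of all genes. The interval of single genes lay below 1 for 11 members of 56 and above 1 for 0, against 17.2% and 29.6% of all genes with a count.

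**Figure D4:**
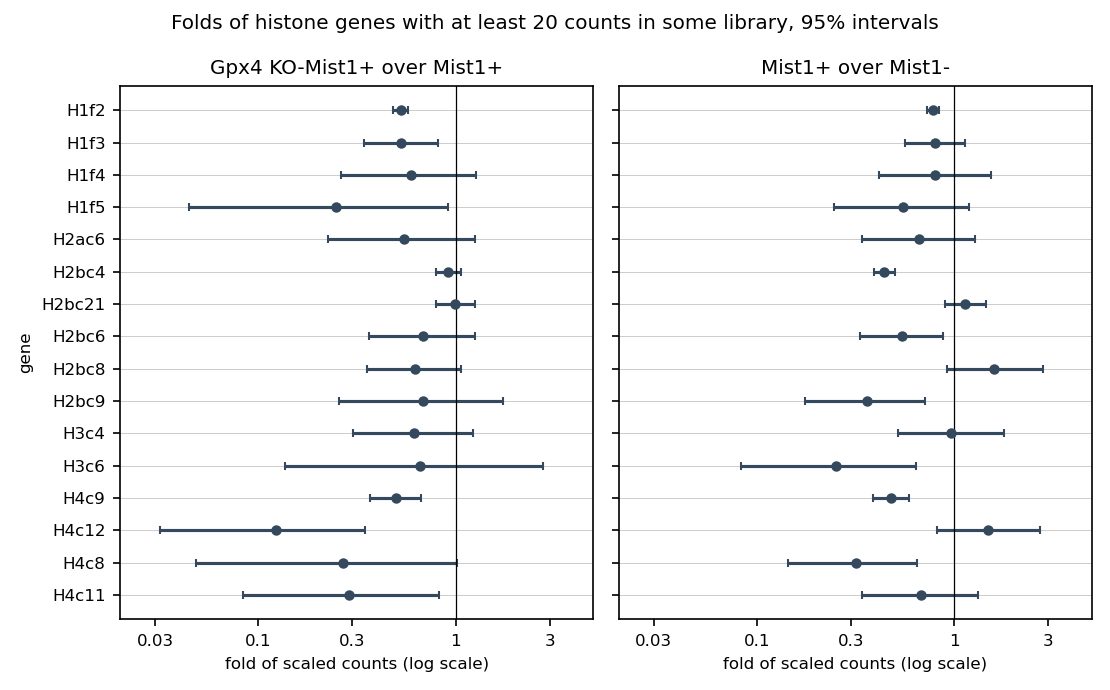
Folds of counts scaled to library totals (log scale) with exact 95% intervals for the 16 members with at least 20 counts in some library, for Gpx4 KO-Mist1+ over Mist1+ (left) and Mist1+ over Mist1- (right). H1f2 and H4c9 lie below 1 in both panels, H2bc4 only in the right one, and H2bc21 spans 1 in both; 6 of the 16 reach 20 counts in Mist1- only.

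Between the library labelled Gpx4 KO-Mist1+ and Mist1- the difference was the largest. The summed counts were 2.43-fold lower (2.29 to 2.58), with H4 at 4.74-fold lower (3.79 to 5.99), H2A at 3.01-fold (1.97 to 4.70), H1 at 2.43-fold (2.24 to 2.65), H3 at 2.38-fold (1.58 to 3.63) and H2B at 2.03-fold (1.84 to 2.24). H4c9 was 4.19-fold lower (3.21 to 5.53), H4c8 11.7-fold (3.66 to 59.7), H2bc4 2.46-fold (2.18 to 2.79) and H1f2 2.42-fold (2.22 to 2.64). H4c1 and H4c18 had no count in the library labelled Gpx4 KO-Mist1+ and were at least 4.39-fold lower against the floor of 3 counts, with an exact 95% interval that begins at 3.05-fold lower. Past the filter, 15 of 26 members were at least 2-fold lower and 0 higher, against 8.56% and 11.6% of all genes and 22.2% and 19.8% of short genes. Below 0 were 25 of the 26, against 45.2% of all genes. Here too 13 of the 26 passed the filter through Mist1- alone, so these counts are partly set by it. With the length trend removed, 4 of the 26 were at least 2-fold lower, against 6.09% of all genes. This comparison shares a library with each of the others and is no separate evidence.

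The same order of libraries ran through many single genes. Of the 56 members with any count, 31 had a scaled count that was lowest in the library labelled Gpx4 KO-Mist1+, intermediate in Mist1+ and highest in Mist1-, against 16.7% of all genes with a count. The scaled count was highest in Mist1- for 41 of the 56, against 28.5%, and lowest in the library labelled Gpx4 KO-Mist1+ for 40, against 27.6%. Many of these orders rest on a few counts. Of the 8 members with at least 60 counts over the 3 libraries together, a limit chosen after the values were seen, 6 had this order, against 21.5% of all genes past the same limit. The exceptions were H2bc8, highest in Mist1+, and H2bc21, lowest in Mist1-. The scaled count was highest in the library labelled Gpx4 KO-Mist1+ for 2 of the 56, H3c11 and H2bc24, the second with 5, 0 and 3 counts in the order used above.

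Histone genes outside the clusters, most of them known to be made through the whole cycle from polyadenylated mRNA, had a higher summed level. The 11 listed summed to 954 FPKM in the library labelled Gpx4 KO-Mist1+, 1260 in Mist1+ and 1630 in Mist1-. The 64 clustered genes summed to 73.9, 128 and 199 in that order. Not all 11 were abundant: Macroh2a2 had 0.59, 1.16 and 0.58 FPKM and H1f10 9.32, 13.2 and 25.1, both below H1f2. Whether the libraries favour polyadenylated mRNA is not known. H3f3b and H3f3a, which encode the replacement histone H3.3, had 239 and 141 FPKM in the library labelled Gpx4 KO-Mist1+, 367 and 176 in Mist1+, and 484 and 237 in Mist1-. H2az1, which encodes H2A.Z, had 183, 246 and 319 FPKM in the same order of libraries. Of the 11, all had a log2 ratio below 0 in the library labelled Gpx4 KO-Mist1+ against Mist1+, against 58.8% of all genes. Their median was -0.42, against -0.09 for all genes. At least 2-fold apart were 0 of the 11, against 2.74% lower and 4.81% higher of all genes. H2ax, the histone phosphorylated at DNA breaks, is known to make both kinds of mRNA. It had 34.8, 65.5 and 80.4 FPKM and was lower by the most on this scale, with a ratio of -0.89. By scaled counts Macroh2a2, with 21 counts in the library labelled Gpx4 KO-Mist1+ and 41 in Mist1+, had a fold of 0.506 (0.284 to 0.876). That of H2ax was 0.532 (0.487 to 0.58). H1f0, the linker histone of resting cells, was lower by the least, at 246, 272 and 291 FPKM with a ratio of -0.14. Against Mist1-, Mist1+ had a median of -0.38 over these 11 genes, against 0.15 for all genes. H2aj alone was at least 2-fold lower, as were 5.73% of all genes.

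Genes of DNA replication were also lower in the library labelled Gpx4 KO-Mist1+ than in Mist1+. Of 30 S phase genes, all had a ratio below 0, against 58.8% of all genes, with a median of -0.76. At least 2-fold lower were 4 of the 30, against 2.74% of all genes, and 0 were higher, against 4.81%. The 4 were E2f2 (-1.37), Mcm5 (-1.15), Fen1 (-1.13) and Cdc6 (-1.06). They encode an activator of S phase genes, a helicase subunit, a flap nuclease and a loader of the helicase. Mcm4 stood just outside at -0.97. The summed counts of the 30 gave a fold of 0.564 (0.557 to 0.572), beside 0.614 for the replication-dependent histone genes and 0.528 for H1f2. Of 16 mitosis genes all had a ratio below 0, with a median of -0.45, and Plk1, a mitotic kinase, was at least 2-fold lower at -1.13. Between Mist1+ and Mist1- the S phase genes did not follow the histone genes on this scale: their median was 0.17, which became -0.05 under median ratio scaling. Pcna, the polymerase clamp, was lower in Mist1+ at 124 FPKM, against 172 in Mist1-, while Pole, the leading-strand polymerase, was higher at 7.45, against 2.74. The comparison of Mist1+ with Mist1- moved with gene length, and that trend was not removed for the lists. Exonic length was 2400 bases for Pcna and 11160 for Pole, beside a median of 529 for the replication-dependent histone genes. The part of length in these differences was not tested. A change in the share of cycling cells and a change in RNA per cell cannot be told apart in bulk libraries.

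Of the factors that make and break histone mRNA, 21 of 22 passed the filter. Slbp had 11.7 FPKM in the library labelled Gpx4 KO-Mist1+, 19.4 in Mist1+ and 21.1 in Mist1-, an order shared with the histone sum. Npat had 7.45, 8.24 and 3.95 FPKM in the same order of libraries, and was thus lowest in Mist1-, where the histone genes were highest. Its exonic length is 6248 bases, and the length trend in the comparisons with Mist1- was not removed for this list. In the library labelled Gpx4 KO-Mist1+ against Mist1+ the median of the list was -0.49, against -0.09 for all genes. At least 2-fold higher were 0 of the 21, against 4.81% of all genes, and 3 were lower, against 2.74%. The 3 were Ccne1 (-1.37) and Ccne2 (-1.24), which encode the E-type cyclins, and Srrt (-1.01), which encodes a partner of the cap-binding complex. Ncbp2, a subunit of that complex, stood at -0.91 and Casp8ap2, a histone locus body protein, at -0.82. Between Mist1+ and Mist1- the median was 0.40, against 0.15 for all genes. Casp8ap2 alone was at least 2-fold higher in Mist1+ and 0 were lower, against 7.88% and 5.73% of all genes. Of 23 histone chaperone and acetylation genes, 22 had a ratio below 0 in the library labelled Gpx4 KO-Mist1+ against Mist1+, against 58.8% of all genes. Their median was -0.40, and 0 were at least 2-fold apart, against 2.74% lower and 4.81% higher of all genes.

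**Figure D5:**
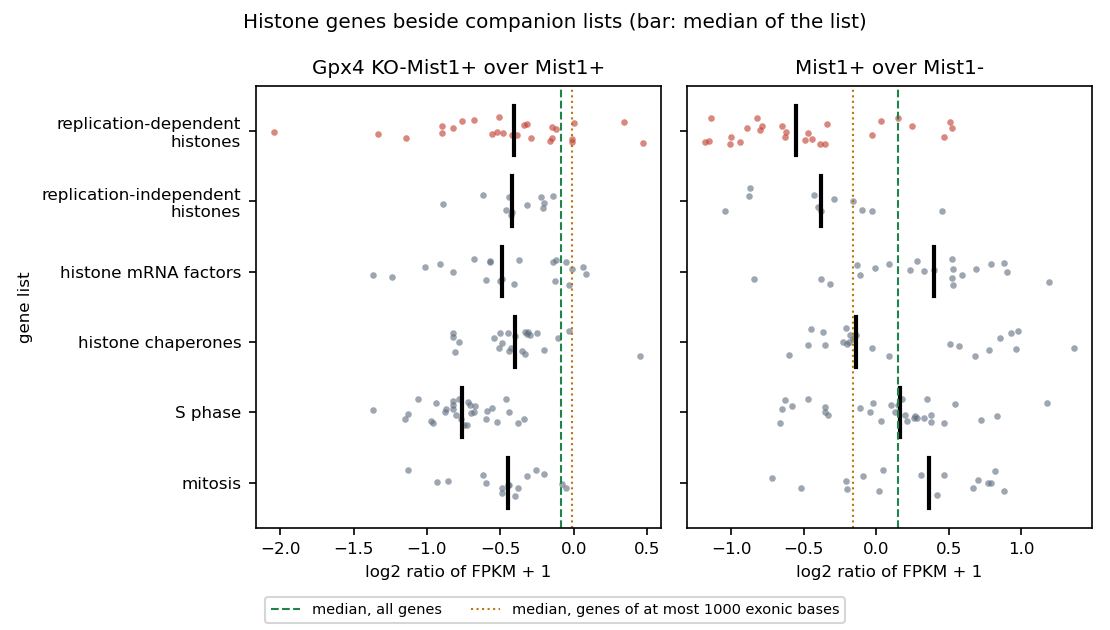
Log2 ratios of FPKM + 1 for the 26 replication-dependent histone genes past the filter and for 5 companion lists, 1 point per gene with the list median as a bar. On the left all lists have a median below that of all genes (dashed); on the right the histone lists lie below it and the mitosis genes and histone mRNA factors above. The trend on gene length is not removed in either panel.

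Other lists also differed between libraries, each mainly in 1 of the 2 comparisons. Genes induced by p53 after DNA damage were higher in the library labelled Gpx4 KO-Mist1+ than in Mist1+: all 12 had a ratio above 0, against 40.7% of all genes, with a median of 0.74. At least 2-fold higher were 4 of the 12, against 4.81% of all genes, and 0 were lower, against 2.74%. The 4 were Gdf15 (1.85), Cdkn1a (1.83), Eda2r (1.51) and Phlda3 (1.06). Cdkn1a, an inhibitor of cyclin-dependent kinases, had 38.3 FPKM in the library labelled Gpx4 KO-Mist1+, 10.1 in Mist1+ and 17.2 in Mist1-. Zmat3 stood at 0.80. In Mist1+ against Mist1- the median of the 12 was 0.03, with 6 above 0 and 6 below. Of a list of other RNAs without a poly(A) tail, Rn18s-rs5, Rn7sk and Rpph1 had the most counts beside Lars2, which is a protein-coding gene, and all 3 were highest in Mist1-. Rn18s-rs5, a ribosomal RNA gene, had 95855 counts in the library labelled Gpx4 KO-Mist1+, 102712 in Mist1+ and 182804 in Mist1-. Rn7sk, the RNA that holds the elongation factor P-TEFb, had 78, 107 and 313 counts, and Rpph1, the RNA of RNase P, had 58, 29 and 136, in the same order. Of the 8 genes of that list that passed the filter, 5 were lower in Mist1+ by 2-fold or more and 0 higher, against 5.73% and 7.88% of all genes and 22.0% and 18.4% of short genes. Besides Rn7sk and Rpph1 these were Rn7s2, a copy of the signal recognition particle RNA, and Rny1 and Rny3, Y RNAs, all 3 at 9 counts or fewer in every library. The median of the list in Mist1+ against Mist1- was -1.40 on FPKM and -0.58 on CPM, Lars2 included. In the library labelled Gpx4 KO-Mist1+ against Mist1+ it was 0.18 on FPKM, with 5 genes above 0 and 2 below. Scarna2, below the filter, had 0 counts in the library labelled Gpx4 KO-Mist1+, 6 in Mist1+ and 4 in Mist1-, and Rmrp, Terc, Rnu11 and Snord118 had none in any library. The part of these RNAs, of gene length and of the cycle genes in the histone values was not tested.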

How the data were processed

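RNA of organoids was sequenced as 3 libraries, 1 per group. Per the submitters' processing notes, cutadapt 1.9.1, HISAT2 2.2.1, HTSeq 0.6.1 and GRCm38.p5 were used. Per the file headers, the deposited table holds a count of reads per gene and an FPKM that the authors derived from it; the FPKM lay within 2.77% of count per exonic length and column total. None of the members starts where GENCODE M21 puts it. The deposited starts differed from those of M21 by 183983 to 184174 bases on chromosome 13 and by -92684 on chromosome 3. Exonic length equalled the longest M21 transcript for 61 of the 64 members. The coordinates of the table are thus not those of M21 on GRCm38, and the assembly and annotation behind it are not known. M21 (GRCm38) and RefSeq (GRCm38.p6) supplied coordinates and sequences after matching all 64 gene identifiers or 57 symbols. Library totals include lines without a symbol, which held at most 0.298% of a library's counts.

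The tools were scipy 1.17.1, statsmodels 0.14.6, pandas 2.3.3, matplotlib 3.10.9 and numpy 2.4.6 under Python 3.11.15. A count has its exact 95% Poisson interval. A fold is the ratio of 2 counts scaled to library totals (CPM), and its 95% interval comes from the exact (Clopper-Pearson) limits of their binomial split. Log2 ratios are of FPKM plus 1, over genes that reach 1 FPKM in some library. No p-value was computed, as each group is 1 library. Copies were measured as 100-base windows over all M21 transcripts, and the length trend was a lowess fit (fraction 0.3) on log exonic length. Named were the 5 members of each type with the highest mean FPKM, the members with at least 50 counts, those on chromosome 3, genes among the 5 largest ratios of a companion list, Slbp, Npat, Gpx4 and Bhlha15; further genes were named after their values were seen. The symbol rule and the lists were settled on with earlier results of these data known.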

Additional observations from a re-analysis of the deposited data

How the results depend on the processing

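The direction of the group was the same under nearly all alternatives run. All 27 alternative values of the members' median log2 ratio stayed below 0. Most of these medians cover the same 26 members, of which 13 passed the filter through Mist1- alone. Such medians are partly set by the filter and are no support for the direction. With no filter the median covers 56 members. It was -0.21 for Gpx4 KO-Mist1+ over Mist1+, -0.27 for Mist1+ over Mist1- and -0.48 for Gpx4 KO-Mist1+ over Mist1-. Of 78 alternative folds of summed counts, only 3 reached 1 or more, all in Mist1+ against Mist1-. They were H1 at 1.03 and H3 at 1.06 with the length trend removed and H3 at 1.04 on TPM. The number of members called at least 2-fold lower depended strongly on the settings, since most members lie near 1 FPKM; for the library labelled Gpx4 KO-Mist1+ against Mist1+, Mist1+ against Mist1- and the library labelled Gpx4 KO-Mist1+ against Mist1-, in this order, the main counts were 3, 4 and 15. With a pseudocount of 0.1 the first pair of counts was 11 and 13, and 2 members became higher in the first comparison; with a pseudocount of 5 they were 0, 1 and 3. An FPKM of at least 5, met by 4 members, left 1, 1 and 4, and at least 50 counts, met by 5, left 0, 1 and 3. CPM gave 1, 1 and 5. TPM, whose values are 2.64 to 3.30 times the FPKM so that the pseudocount weighs less, gave 12 and 8 in the first pair, with 1 member higher in Mist1+ than in Mist1-. A 1.5-fold cutoff gave 8 and 13 and a 4-fold cutoff 1, 0 and 1. With the length trend removed the counts for both comparisons with Mist1- were 0 and 4, against 3.86% and 6.09% of all genes. At a pseudocount of 0.1, 5.79% of all genes and 17.4% of short genes were at least 2-fold lower in the first comparison. Beside the main settings no other share over all genes was computed. The remaining counts therefore show only how the calls depend on the settings. Folds of summed counts moved as follows. Gpx4 KO-Mist1+ over Mist1+ had 0.614 over all members, 0.565 on TPM, 0.724 without H1f2, 0.518 without the 4 most abundant members and 0.562 over the 18 members that are at least 80% unique; H4 had 0.259 without H4c9. Mist1+ over Mist1- had 0.670, then 0.804 on TPM, 0.572 under median ratio scaling, 0.567 without H1f2, 0.748 over the unique members and 0.914 with the length trend removed. By type, that comparison gave 0.969, 0.666 and 0.718 for H1, H2B and H4 on TPM, 0.665 and 0.469 for H1 and H2B under median ratio scaling, 0.750 and 0.702 for H2B and H4 with the length trend removed, and 0.853 for H2B without H2bc4. Gpx4 KO-Mist1+ over Mist1- had 0.412, then 0.454 on TPM, 0.374 under median ratio scaling, 0.339 without the 4 most abundant members and 0.560 with the length trend removed. By type it gave 0.498 and 0.547 for H1 and H2B on TPM, 0.373 for H1 under median ratio scaling, 0.551, 0.670 and 0.274 for H1, H2B and H4 with the length trend removed, 0.739 for H2B without H2bc4 and 0.160 for H4 without H4c9. The leave-out of the 4 most abundant members and the restriction to unique members were chosen after seeing the data; the cause of these shifts was not tested. The median log2 ratio of all genes in Mist1+ against Mist1- was 0.15 on FPKM, 0.47 on TPM and -0.02 under median ratio scaling. No paired analysis was possible because each group has 1 library. At this depth 54, 47 and 43 of the 64 members had under 10 counts in the library labelled Gpx4 KO-Mist1+, Mist1+ and Mist1-, so a change of single members was mostly not detectable.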

Other observations

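Other histone genes that the symbol rule did not take were looked at after the other values were seen, with no comparison planned. H2bu2, an H2B gene on chromosome 11, had 8 counts in the library labelled Gpx4 KO-Mist1+, 17 in Mist1+ and 41 in Mist1-, the order of the clustered genes. Its fold was 0.465 (95% interval 0.174 to 1.14) for Gpx4 KO-Mist1+ over Mist1+ and 0.383 (0.204 to 0.689) for Mist1+ over Mist1-. H2aw, an H2A gene on chromosome 11, had 48 counts in the library labelled Gpx4 KO-Mist1+, 40 in Mist1+ and 78 in Mist1-, so that Mist1- stood apart from both others. H3f3c had 21, 30 and 24 counts in the same order of libraries, and H4f16, on chromosome 6, had 15, 8 and 11; neither differed between any pair of libraries beyond counting error. The testis genes H1f6 and H2bl1, both on chromosome 13, had at most 2 counts in a library.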
